A study of Mus musculus with 16 samples.

Results

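H3K4me3 and H3K27ac, 2 histone marks of active chromatin, were compared by the peaks called for each in control mouse embryonic stem cells (mESCs). The 4 peak lists are H3K4me3 replicates 1 and 2 and H3K27ac replicates 1 and 2 of the samples labelled Mettl14 Control. They make up 4 of the 16 libraries of the series, and they hold 34351 of the 117176 peaks of its 12 lists. The series studied METTL14, which with METTL3 forms the methyltransferase for N6-methyladenosine (m6A) in RNA, by ChIP-seq in control and Mettl14 knockout cells. All cells were of the C57BL/6 strain and grew in serum with LIF, the GSK3 inhibitor CHIR99021 and the MEK inhibitor PD0325901, so the control cells had both inhibitors too. The labels do not say how the control was made, or that replicates came from separate cultures, so p-values measure only the spread between lists, which may be technical. The label of the H3K27ac libraries names the antibody of the H3K4me3 libraries. The mark in the sample title was used, and the antibody could not be checked from the lists.

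H3K4me3 is written by the SET1 and MLL enzymes and read by factors that help transcription to start, and it lies around the starts of active and poised genes, most of all at CpG islands. H3K27ac is written by EP300 and CREBBP and bound by bromodomain proteins, and it lies at active promoters and also at active enhancers, inside and between genes. In mESCs both are known at genes of the pluripotency network and of general cell functions, while Polycomb proteins hold many developmental genes under H3K27me3.

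A call of a gene in a list means that at least 1 bp of a peak lay within 1 kb of its first or last base, by the spans of the RefSeq gene table of the mm10 assembly (GRCm38.p6). Of 21887 protein-coding genes, 671 (3.07%) were called for H3K4me3 in both control lists and 1988 (9.08%) for H3K27ac in both. Both marks were called in all 4 lists at 406 genes (1.85%). H3K4me3 was called in both of its lists with no H3K27ac call in either at 70 genes (0.320%). The reverse, H3K27ac in both of its lists with no H3K4me3 call, held for 937 genes (4.28%), and 16070 genes (73.4%) had no call in any of the 4 lists. The lists hold positions and widths but no read numbers. An unmarked site, a site below the calling threshold and a site marked in few of the cells therefore cannot be told apart, and the depth behind each call is unknown.

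Promoters of the 3 classes are shown first, since the classes differed in CpG content. The sequences come from RefSeq (build GRCm38.p6), run from 250 bases before the annotated start to 50 after it, 5′ to 3′ on the gene's strand, and have each CpG in capitals. For each class they are those of the 2 widest-ranked genes whose start base lay under the peaks of every list that defines the class. Spry2 (chr14:105896770-105897069 on the minus strand) encodes a feedback inhibitor of receptor tyrosine kinase signalling, and Eif2s2 (chr2:154892857-154893156 on the minus strand) a subunit of translation initiation factor eIF2. Both had both marks in all 4 lists.
Spry2: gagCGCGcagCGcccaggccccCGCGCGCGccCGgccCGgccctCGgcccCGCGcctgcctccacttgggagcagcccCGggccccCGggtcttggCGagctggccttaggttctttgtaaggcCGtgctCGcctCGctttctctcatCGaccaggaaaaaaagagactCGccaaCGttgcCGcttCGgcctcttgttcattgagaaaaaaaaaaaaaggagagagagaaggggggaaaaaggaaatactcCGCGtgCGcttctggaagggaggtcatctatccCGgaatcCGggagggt
Eif2s2: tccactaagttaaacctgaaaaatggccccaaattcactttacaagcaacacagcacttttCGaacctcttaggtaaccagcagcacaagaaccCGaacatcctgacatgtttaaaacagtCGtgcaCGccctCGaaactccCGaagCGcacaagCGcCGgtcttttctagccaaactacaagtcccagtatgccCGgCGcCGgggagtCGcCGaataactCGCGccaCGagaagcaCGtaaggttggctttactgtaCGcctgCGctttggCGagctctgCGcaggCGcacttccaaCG
Traf4 (chr11:78165501-78165800 on the minus strand) encodes a signalling adaptor and Tshz3 (chr7:36697868-36698167 on the plus strand) a zinc finger protein. Both had H3K4me3 alone.
Traf4: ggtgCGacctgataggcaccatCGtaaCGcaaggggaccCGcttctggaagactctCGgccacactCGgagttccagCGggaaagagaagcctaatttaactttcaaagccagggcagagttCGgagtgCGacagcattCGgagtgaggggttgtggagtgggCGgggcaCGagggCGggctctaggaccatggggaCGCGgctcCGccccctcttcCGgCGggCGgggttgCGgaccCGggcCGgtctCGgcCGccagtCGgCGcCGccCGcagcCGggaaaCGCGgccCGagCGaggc
Tshz3: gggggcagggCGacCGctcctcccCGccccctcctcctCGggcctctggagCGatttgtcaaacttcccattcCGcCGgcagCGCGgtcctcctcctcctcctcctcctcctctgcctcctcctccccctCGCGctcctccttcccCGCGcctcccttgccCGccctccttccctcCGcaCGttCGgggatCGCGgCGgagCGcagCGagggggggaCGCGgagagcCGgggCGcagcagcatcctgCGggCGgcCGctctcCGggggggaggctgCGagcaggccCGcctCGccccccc
Ooep (chr9:78378539-78378838 on the minus strand), a gene of the oocyte and early embryo, and H1f2 (chr13:23738557-23738856 on the plus strand), a linker histone, had H3K27ac alone.
Ooep: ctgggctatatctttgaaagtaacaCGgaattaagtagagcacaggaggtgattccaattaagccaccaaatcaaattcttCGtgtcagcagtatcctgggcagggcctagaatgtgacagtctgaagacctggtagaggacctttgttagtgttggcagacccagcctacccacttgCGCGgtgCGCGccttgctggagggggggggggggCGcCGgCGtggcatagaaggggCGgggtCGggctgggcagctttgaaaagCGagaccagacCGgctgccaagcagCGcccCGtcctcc
H1f2: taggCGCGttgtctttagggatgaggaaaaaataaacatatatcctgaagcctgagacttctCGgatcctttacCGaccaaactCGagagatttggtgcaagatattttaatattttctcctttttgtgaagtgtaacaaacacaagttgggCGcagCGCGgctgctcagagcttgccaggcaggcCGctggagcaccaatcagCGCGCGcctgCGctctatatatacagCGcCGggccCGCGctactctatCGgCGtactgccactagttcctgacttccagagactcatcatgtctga
Spry2 has 28 CpG and Eif2s2 24 in the 300 bases, Traf4 and Tshz3 have 33 each, Ooep has 15 and H1f2 19.

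CpG content was then counted over all annotated starts of the classes. Each start was put in a class by the peaks within 1 kb of that start. The median number of CpG in the 300 bases was 28 at 435 starts with both marks in all 4 lists, 27 at 88 starts with H3K4me3 alone, and 21 at 820 starts with H3K27ac alone. It was 8 at 15837 starts with no call, and 13 over all 21263 starts of protein-coding genes. A promoter was counted as CpG-rich when GC made up at least 50% of it and CpG reached at least 0.6 of the number its base composition gives. By that count 90.1% of starts with both marks were CpG-rich, 86.4% with H3K4me3 alone, 67.7% with H3K27ac alone, 34.5% with neither, and 45.1% of all. Starts with H3K4me3, with or without H3K27ac, thus were CpG-rich more often than those with H3K27ac alone. Starts of 1 gene can overlap, so these are descriptions without a test.

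Short motifs were searched in the same 300 bases on both strands. The GC box GGGCGG, bound by SP family factors, was in 74.5% of promoters with both marks, 77.3% with H3K4me3 alone and 62.0% with H3K27ac alone, against 46.2% of all promoters. TCTCGCGA, the core of a palindromic CGCG element, was in 8.74%, 7.95% and 3.66% in the same order, against 1.41% of all. The YY1 core ATGGCGGC was in 8.28%, 12.5% and 6.10% against 3.02%, and the ETS core CCGGAAG in 19.8%, 19.3% and 18.3% against 11.6%. The CRE palindrome TGACGTCA was in 5.75%, 9.09% and 2.80% against 2.23%. The TATA box TATAAA went the other way, with 5.98%, 5.68% and 9.88% against 12.6% of all, and CCAAT was in 31.5%, 44.3% and 35.9% against 38.2%. All of these but TATAAA and CCAAT contain a CpG, in which the classes differ, and only 88 promoters had H3K4me3 alone. A match is a string of letters and not a bound site.

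The H3K4me3 lists of control cells were short. They held 2859 and 2431 peaks in replicates 1 and 2, and the H3K27ac lists 15541 and 13520, a mean of 2645 ± 303 (SD, n = 2) against 14530.5 ± 1429 (SD, n = 2), or 5.49-fold more. H3K4me3 peaks covered 1.78 and 1.56 Mb and H3K27ac peaks 15.2 and 13.3 Mb, 8.53-fold more. Both H3K27ac lists exceeded both H3K4me3 lists in each measure. With 2 lists against 2, the exact two-sided permutation test cannot go below p = 0.333, and it gave p = 0.333 for peak number and for covered length. In knockout cells the H3K4me3 lists held 8131 and 8055 peaks and the H3K27ac lists 15271 and 15058.

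H3K4me3 peaks were narrower. Their mean width was 622 and 643 bp, against 980 and 982 bp for H3K27ac (exact permutation p = 0.333). Peaks of the smallest width in the lists, 501 bp, made up 68.1 and 62.0% of the H3K4me3 lists and 51.3 and 51.8% of the H3K27ac lists. The widest peaks were 3351 and 3073 bp for H3K4me3 and 20743 and 20813 bp for H3K27ac. In knockout cells the mean widths were closer, 1000 and 979 bp for H3K4me3 and 1043 and 1062 bp for H3K27ac. These widths are lengths of called intervals, not amounts of the mark.

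H3K4me3 peaks lay at gene ends more often than H3K27ac peaks. Of the H3K4me3 peaks 57.3 and 65.9% were within 1 kb of an end of a gene of any type, 27.1 and 22.9% inside a gene and 15.7 and 11.2% between genes. Of the H3K27ac peaks 29.2 and 28.3% were at gene ends, 45.8 and 46.4% inside genes and 25.0 and 25.4% between genes. The share at gene ends was lower for H3K27ac by a mean of 32.8 percentage points, with no overlap of the lists (exact permutation p = 0.333).

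**Figure D1:**
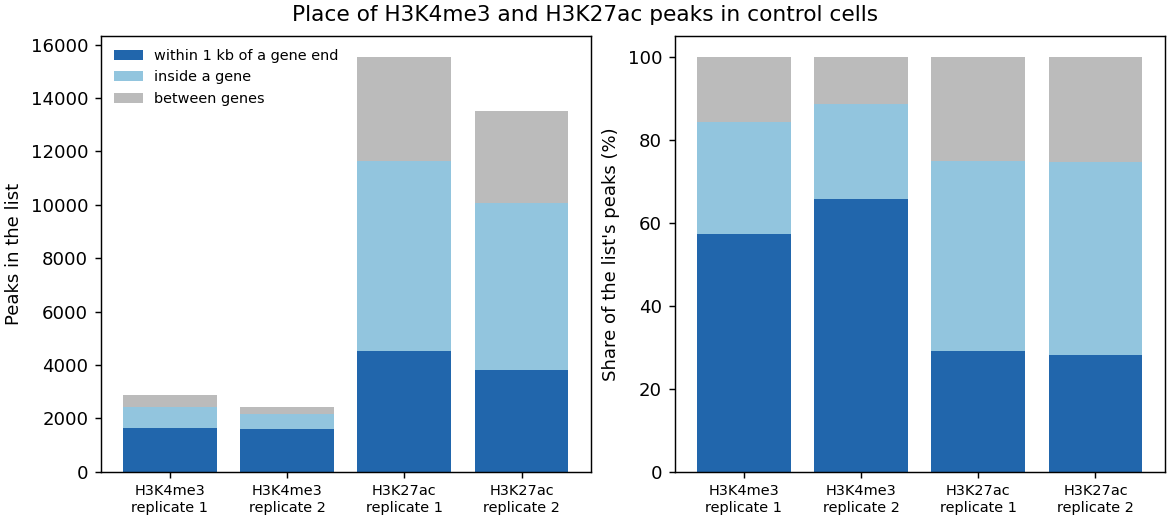
Peaks of the 4 control lists by place, as numbers (left panel, peaks) and as shares of each list (right panel, %). Each bar is 1 list, and the H3K4me3 bars reach 2859 and 2431 peaks with 57.3 and 65.9% at gene ends, against 15541 and 13520 peaks with 29.2 and 28.3% for H3K27ac.

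Within a gene the calls sat mostly at the start. The promoter table gives starts and strands for 17492 protein-coding genes. Of those called in a list, 3.95 and 3.53% were called for H3K4me3 at the end of transcription and not at a start, against 10.7 and 10.5% for H3K27ac. Among peaks centred within 2 kb of the nearest start, the median H3K4me3 centre was 434 and 423 bp downstream of it, and the median H3K27ac centre 248 and 249.5 bp (exact permutation p = 0.333). Centres downstream of the start made up 88.2 and 87.1% for H3K4me3 and 67.9 and 67.7% for H3K27ac. Peaks of 501 bp, which have a fixed width, gave 387 and 382 bp for H3K4me3 and 268 and 259 bp for H3K27ac, so the order was the same at equal width.

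The same offset was seen at the 435 starts that had both marks in all 4 lists. There, an H3K4me3 peak covered the start base itself at 29.2 and 31.7% of starts, the base 500 bp downstream at 72.9 and 74.0%, and the base 500 bp upstream at 13.8 and 17.5%. H3K27ac peaks covered the start at 75.9 and 66.4%, the downstream base at 83.9 and 78.4%, and the upstream base at 48.3 and 43.7%. At each of the 3 positions H3K27ac peaks covered more of these starts than H3K4me3 peaks did, and both marks covered more starts downstream than upstream. This measure was chosen after the lists had been seen.

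**Figure D2:**
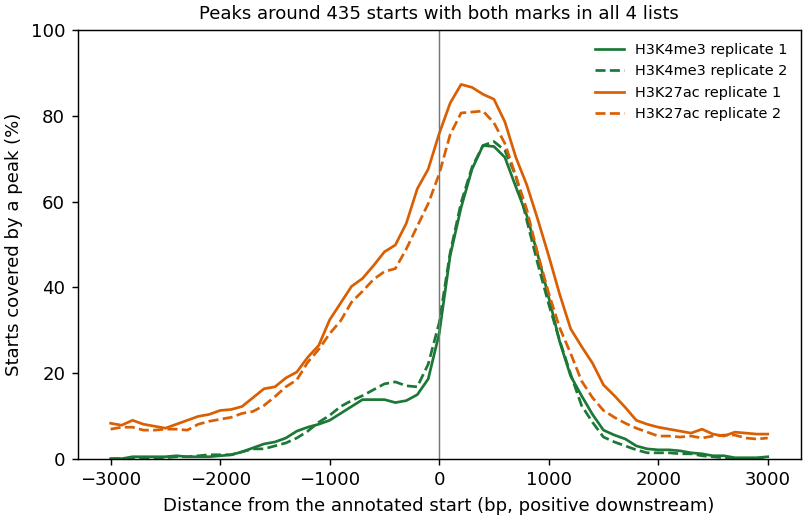
Share of the 435 starts with both marks that a peak covered (vertical axis, %), by distance from the start (horizontal axis, bp, positive downstream), with 1 line for each control list. H3K4me3 lines rise from 29.2 and 31.7% at the start to 72.9 and 74.0% at 500 bp, and H3K27ac lines stand at 75.9 and 66.4% at the start.

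Few H3K4me3 peaks of control cells recurred between replicates. Of the peaks in replicates 1 and 2, 22.2 and 26.1% overlapped a peak of the other replicate by at least 1 bp, against 32.8 and 38.1% for H3K27ac (exact permutation p = 0.333). Among H3K4me3 peaks of 501 bp the share was 10.7 and 12.9%, and among wider ones 46.7 and 47.6%. Merging the 2 H3K4me3 lists gave 634 regions present in both and 4022 present in 1 list, with median widths of 1001.5 and 501 bp. In knockout cells the order of the marks was the reverse. There, 62.5 and 63.0% of H3K4me3 peaks overlapped the other replicate, against 41.4 and 41.8% of H3K27ac peaks.

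The regions in both H3K4me3 lists were mostly gene starts. Of the 634, 566 lay at gene ends (538 of them at ends of protein-coding genes), 65 inside genes and 3 between genes, and 82.8% lay within 1 kb of an annotated start. The protein-coding genes nearest to those 3 were Rab12, Spred2 and Gm32719, at 10719, 86821 and 43450 bp. A replicated H3K27ac region overlapped 375 of the 634 (59.1%), a further 177 (27.9%) met H3K27ac of 1 list, and 82 (12.9%) met none. None of the 634 had H3K27me3 in both control lists. The share was also near 0 for H3K4me3 regions in 1 list (0.348%) and replicated H3K27ac regions (0.0205%). In knockout cells 607 of the 634 (95.7%) had H3K4me3 in both lists. The regions in 1 list were spread more widely, with 2123 at gene ends, 1184 inside genes and 715 between genes, and 64.3% of them met no H3K27ac peak. Of these, both knockout H3K4me3 lists had a peak at 67.2% of those at gene ends, 14.4% of those inside genes and 1.54% of those between genes.

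Wider H3K4me3 regions met H3K27ac more often. Of 318 replicated regions with a peak of the smallest width in at least 1 list, 46.2% overlapped replicated H3K27ac and 21.7% met none. Of 240 regions with wider peaks but a smaller width under 1000 bp, 67.9% did and 5.42% met none. Of 76 regions with a peak of at least 1000 bp in both lists, 85.5% did and 0 met none. An overlap needed only 1 bp, which a wider interval reaches more easily, and how much this adds was not tested. From the other side, replicated H3K4me3 overlapped 7.68% of the 4868 replicated H3K27ac regions: 17.1% of those at gene ends, 1.71% inside genes and 0.178% between genes.

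At the level of genes, H3K4me3 calls were largely contained in H3K27ac calls. Of the 671 genes with H3K4me3 in both lists, 60.5% had H3K27ac in both and 89.6% in at least 1, against 9.08 and 22.7% of all protein-coding genes. Of the 1988 genes with H3K27ac in both lists, 20.4% had H3K4me3 in both, against 3.07% of all. At 404 of the 406 genes with both marks, the merged H3K4me3 and H3K27ac regions overlapped each other. An H3K4me3 region present in both lists lay within the gene span at 339 of the 406 (83.5%). At the others the H3K4me3 peaks of the lists may lie apart or outside the span, since a call needs no overlap between replicates. Calls in a single list were frequent: 774 genes had H3K4me3 in 1 list and no H3K27ac, 2028 had H3K27ac in 1 list and no H3K4me3, and 645 had H3K27ac in both lists and H3K4me3 in 1.

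These counts depended on list length. With each list cut to its 2431 widest peaks, the length of the shortest, 154 genes had both marks, 355 H3K4me3 alone and 194 H3K27ac alone. The order of the single-mark classes was then reversed, and 24.4% of genes with H3K4me3 had H3K27ac. With 501 bp peaks left out, 214 genes had both marks and 34 had H3K4me3 alone. With a mark called from 1 of its lists, H3K4me3 alone held at 472 genes without H3K4me3 replicate 1, 442 without H3K4me3 replicate 2, 176 without H3K27ac replicate 1 and 159 without H3K27ac replicate 2.

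**Figure D3:**
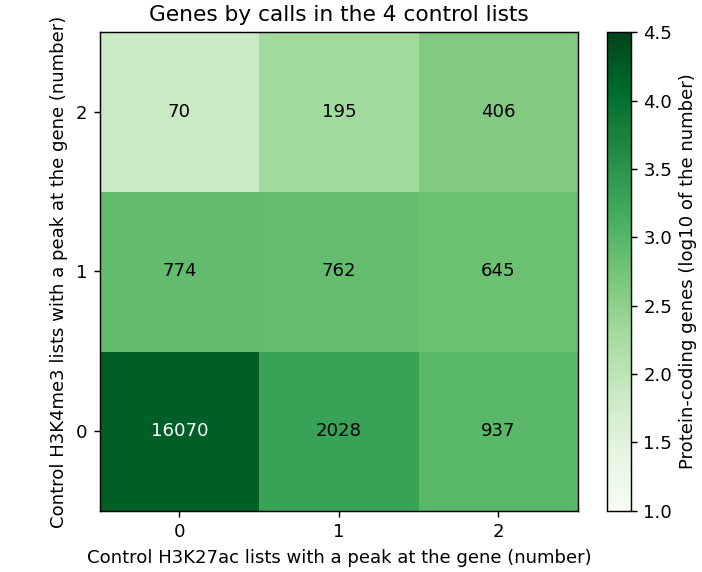
Protein-coding genes by the number of control lists with a peak at the gene, H3K27ac lists on the horizontal and H3K4me3 lists on the vertical axis. Colour is the log10 of the number of genes, which is printed in each cell: 406 genes had all 4 lists, 70 both H3K4me3 lists alone and 937 both H3K27ac lists alone.

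Genes with both marks were ranked by the smaller width of their H3K4me3 peaks. Spry2 had H3K4me3 peaks of 3351 and 3073 bp, the widest of both lists, and H3K27ac peaks of 5040 and 4460 bp. Eif2s2 had 2400 and 2432 bp of H3K4me3 under 11380 and 6872 bp of H3K27ac. Klf2 (chr8:72319062-72321654), a naive pluripotency factor, had 2316 and 2150 bp and 8235 and 6843 bp. At these genes the H3K27ac peak was wider than the H3K4me3 peak in each replicate.

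Txnip (chr3:96557957-96561857), a regulator of glucose uptake, was the exception among the first 10. Its H3K4me3 peaks measured 2246 and 2360 bp and its H3K27ac peaks 784 and 630 bp. Hspa8, the constitutive HSC70 chaperone, had 2759 and 1755 bp of H3K4me3 and 4259 and 5569 bp of H3K27ac. Kdm5b, a demethylase of H3K4, had 1699 and 1791 bp and 2158 and 1825 bp, in peaks shared with its neighbour Mgat4e. Ewsr1, an RNA-binding protein gene, shared its peaks with Rhbdd3, with 1818 and 2023 bp and 2314 and 2448 bp. Jam2, a junctional adhesion molecule, completed the ranking with 1566 bp in both H3K4me3 lists and 10245 and 9101 bp of H3K27ac. Shared peaks were common: 130 of the 406 genes with both marks, 19 of the 70 with H3K4me3 alone and 335 of the 937 with H3K27ac alone had the peak in common with another protein-coding gene.

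The widest H3K27ac peak of each control list lay over the miR-290 cluster, a group of microRNA genes known for strong expression in mESCs. It measured 20743 bp (chr7:3200044-3220786) in replicate 1 and 20813 bp (chr7:3199189-3220001) in replicate 2. H3K4me3 peaks of 1521 and 1978 bp lay inside it (chr7:3217692-3219212 and chr7:3217943-3219920), ranked 39 and 8 by width in their lists. By the protein-coding ranking this locus appears as Nlrp12 (chr7:3218643-3249771, minus strand), an innate immunity gene whose end of transcription, not its start, lies at the cluster. With windows at starts alone, Nlrp12 was no longer called for both marks. The locus was looked up after its width had been seen.

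The mature 3p strands of the cluster are printed from RefSeq (build GRCm38.p6), 5′ to 3′ with the seed, bases 2 to 8, in capitals. They lie on the plus strand at chr7:3218674-3218697 (miR-290a-3p), chr7:3218968-3218989 (miR-291a-3p), chr7:3219529-3219550 (miR-291b-3p), chr7:3220390-3220411 (miR-293-3p), chr7:3220691-3220712 (miR-294-3p) and chr7:3220815-3220837 (miR-295-3p).
mmu-miR-290a-3p: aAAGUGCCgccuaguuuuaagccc
mmu-miR-291a-3p: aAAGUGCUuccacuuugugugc
mmu-miR-291b-3p: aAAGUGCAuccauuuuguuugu
mmu-miR-293-3p: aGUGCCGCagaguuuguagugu
mmu-miR-294-3p: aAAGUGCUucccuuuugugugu
mmu-miR-295-3p: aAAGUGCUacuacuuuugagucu
The seed AAGUGCU is shared by miR-291a-3p, miR-294-3p and miR-295-3p, and the seeds of miR-290a-3p and miR-291b-3p, AAGUGCC and AAGUGCA, share the first 6 bases with it. Of these strands, miR-290a-3p and miR-291a-3p lay under the peaks of all 4 control lists. The strand of miR-291b-3p lay under all but the H3K4me3 peak of replicate 1. Those of miR-293-3p and miR-294-3p lay under the H3K27ac peak of replicate 1 alone, and that of miR-295-3p lay beyond the peaks of all 4 control lists. The H3K4me3 peak overlapped 5 of the cluster's 9 microRNA genes in replicate 1 and 6 in replicate 2, and the H3K27ac peak all 9 and 6. With the 1 kb window, 6 of the 9 genes had a call in all 4 lists, and Mir293, Mir294 and Mir295 lacked the H3K4me3 call of replicate 1. The miR-302 cluster, whose members are known for a related seed and for later pluripotent states, had no call in any of the 4 lists. Of 1228 microRNA genes 12 had both marks in all 4 lists, and these include the 6 of the miR-290 cluster. H3K4me3 was in both lists at 13 (1.06%) and H3K27ac at 51 (4.15%), against 3.07 and 9.08% of protein-coding genes. No call was made at 1087 of the 1228, so the lack of one at miR-302 is common among microRNA genes.

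Other genes with both marks ranked by the width of H3K27ac. Tdgf1, the NODAL co-receptor CRIPTO, had 5915 and 8031 bp of H3K27ac and 501 and 764 bp of H3K4me3. Mybl2, a cell cycle transcription factor, had 6818 and 7072 bp and 941 and 1126 bp. Arih2, a ubiquitin ligase, Ubqln4, a ubiquitin-binding protein, and Gna13, a G protein subunit, had H3K27ac peaks of 11629 and 11396 bp, 9455 and 7570 bp, and 6096 and 5567 bp. In these genes the H3K27ac interval was several times the H3K4me3 interval.

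The 70 genes with H3K4me3 alone had narrow peaks. Their median H3K4me3 width was 501 bp in both lists, against 789 and 792 bp at the 406 genes with both marks. Vegfa (chr17:46016993-46032377), which encodes an angiogenic growth factor, ranked first with 1305 and 1751 bp, but its farther peak lay 1000 bp from the gene end and only just touched the window. Traf4 and Nek8, a ciliary kinase, shared peaks of 1108 and 948 bp. Ing2, a reader of H3K4me3 in a deacetylase complex, had 935 and 1159 bp, Tomm22, a mitochondrial import receptor, 854 and 998 bp, and Tshz3 648 and 815 bp. Sgpl1, a sphingolipid enzyme, Ddx41, a helicase, Mob1b, a Hippo pathway cofactor, and Rc3h1, the RNA-binding protein Roquin, had 631 to 900 bp. Knockout cells had H3K4me3 in both lists at 64 of the 70 (91.4%, against 24.0% of all genes) and H3K27ac in both at 17 (24.3%, against 14.4% of all). The class refers to gene ends. An H3K27ac region lay within the span of 24 of the 70 (34.3%), and a replicated one within 6 (8.57%). Over all protein-coding genes the shares were 32.4 and 12.4%, but these include genes called for H3K27ac at their ends.

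Just inside the window besides Vegfa lay Ncl at 991 bp and Hells at 988 bp, counted to the farther of the 2 H3K4me3 peaks. Just outside lay Zc3h4 at 1027 bp, Rpl24 at 1034 bp and Aif1l at 1035 bp.

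The 937 genes with H3K27ac alone held some of its widest intervals. Ooep, with peaks of 11205 and 11615 bp, shared them with Dppa5a, a pluripotency-associated gene. Dppa5a is not of this class, since it had an H3K4me3 peak of 501 bp in replicate 1. H1f2, H2bc3 and H3c3, genes of a histone cluster, shared peaks of 9953 and 9741 bp. Gpx4, an enzyme against lipid peroxidation, had 8039 and 7754 bp, and Fam25c and Arl14epl, genes of less known role, had 7379 and 9783 bp and 7109 and 10039 bp. Elobl, a gene like that of elongin B, had 6737 and 6899 bp. Shisa7 (chr7:4825551-4844866), a receptor-associated membrane protein of neurons, had 8606 and 7689 bp of H3K27ac, and H3K27me3 peaks of 810 and 965 bp in the control lists.

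Few genes had that combination. H3K27me3 was called in both control lists at 5 genes with H3K27ac alone (0.534%), Shisa7, Ccdc106, Pacsin3, Trp53bp1 and Zfp580, at 0 of the 406 with both marks and 0 of the 70 with H3K4me3 alone, against 792 of all protein-coding genes (3.62%) and 706 of those with neither active mark (4.39%). Knockout cells had H3K4me3 in both lists at 504 of the 937 genes (53.8%), at 390 of the 406 with both marks (96.1%) and at 1736 of those with neither (10.8%). H3K27ac was in both knockout lists at 651 of the 937 (69.5%) and at 337 of the 406 (83.0%).

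**Figure D4:**
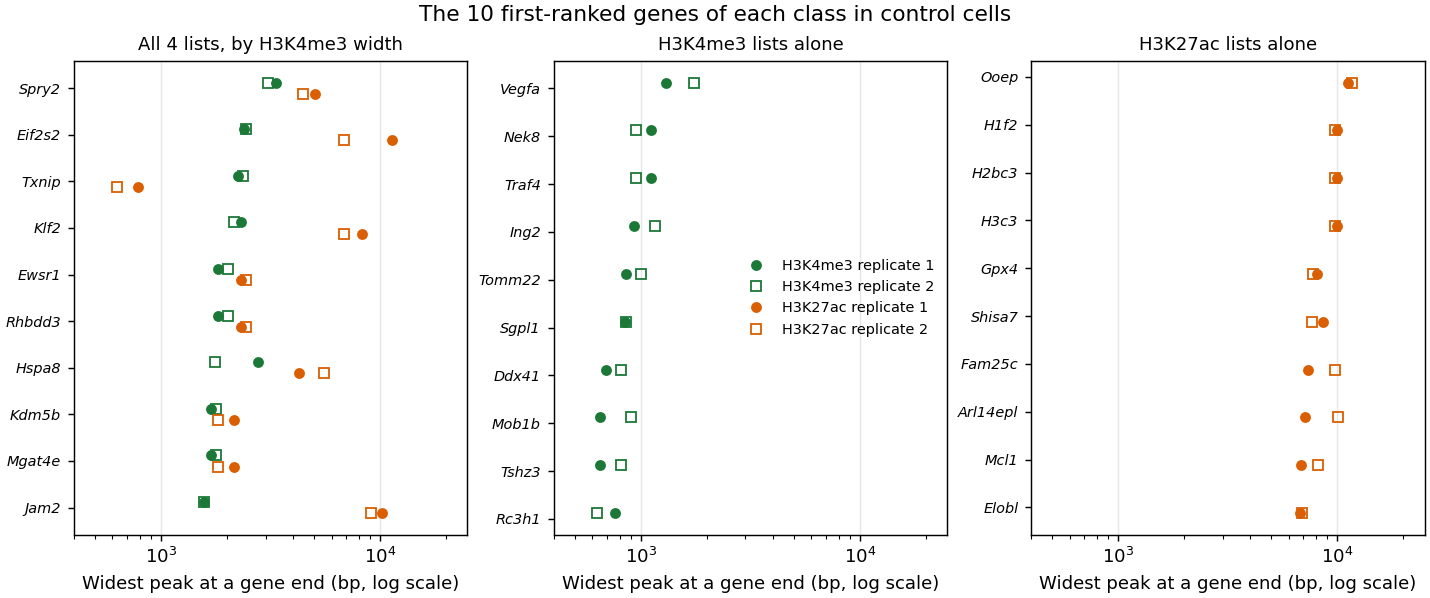
Width of the widest peak at a gene end (horizontal axis, bp, log scale) in each of the 4 control lists for the 10 first-ranked genes of each class, with filled circles for replicate 1 and open squares for replicate 2. Txnip is the gene of the left panel with H3K27ac (784 and 630 bp) far below H3K4me3 (2246 and 2360 bp), and no gene of the middle panel exceeds 1751 bp.

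Some genes classed as H3K27ac alone carried H3K4me3 inside the gene span, where the gene-end window does not reach. A replicated H3K4me3 region lay within the span of 18 of the 937 genes (1.92%), and any H3K4me3 region within 97 (10.4%). Over all protein-coding genes the shares were 3.04 and 15.8%, but these include genes called for H3K4me3 at their ends. The class leaves such genes out by definition, so its lower shares are no result about its genes. Mcl1 (chr3:95656944-95663179), an anti-apoptotic BCL2 family gene, was 1 of them, with H3K27ac of 6809 and 8183 bp at its ends and H3K4me3 of 1076 and 1197 bp in its span. Of the 68 replicated H3K4me3 regions away from gene ends, 48 lay within 1 kb of an annotated start that is not the outermost end of the span. All 68 had H3K4me3 in both knockout lists.

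The 10 widest of these 68 regions were ranked in the same way. Cdkn1a, the p21 inhibitor of cyclin-dependent kinases, had H3K4me3 of 1321 and 1731 bp at chr17:29093714-29095444, with H3K27ac of 944 and 501 bp. Socs3, a feedback inhibitor of LIF signalling, had 1217 and 1330 bp at chr11:117967424-117969009, with H3K27ac in replicate 1 alone (501 bp). Hnrnpu, a nuclear RNA-binding protein, had 1516 and 1153 bp, and H3K27ac of 3293 and 1888 bp. Slc2a3, a glucose transporter, had 1816 and 1123 bp, and Kdm6a, a demethylase of H3K27, 1231 and 934 bp. The ranking also held Ppp1cc, a phosphatase subunit, the splicing factor Srsf1, the ribosomal protein gene Rpl19 and the kinase gene Taok1, with smaller widths of 934 to 1043 bp. At 8 of these 68 regions no H3K27ac peak was met.

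Gene lists were then read against the whole table. The 20 lists hold 388 genes, of which 387 were found. Counts are of genes called in both lists of a mark, beside 3.07% (H3K4me3) and 9.08% (H3K27ac) of all protein-coding genes, and counts of genes without any call stand beside 73.4% of all. The lists were not tested. More genes were called for H3K27ac than for H3K4me3 over the whole table, so the same order within a list is no property of that list.

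The writers and erasers of the marks themselves form 2 of the lists. Of 17 H3K4 methylases and demethylases, 2 (11.8%, against 1.85% of all genes) had both marks, Setd1b, a SET1 methylase subunit (H3K4me3 501 and 501 bp, H3K27ac 1205 and 1798 bp), and Kdm5b. Another 3 had H3K27ac alone, the MLL family genes Kmt2b and Kmt2e and the demethylase gene Kdm1a. Of 20 enzymes and readers of histone acetylation, 2 had both marks, Ep300 (501 and 691 bp, 3516 and 2205 bp) and the reader Brd2 (1144 and 755 bp, 4836 and 4190 bp). No H3K4me3 region present in both lists lay within the Ep300 span. Over these lists H3K27ac was in both lists at 9 of 17 and 7 of 20 genes, and H3K4me3 at 2 and 3.

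Among 27 Polycomb and H3K27 demethylase genes, 2 had H3K4me3 in both lists and 11 H3K27ac in both. Of these, Mtf2 and Rbbp7, both PRC2-associated, had both marks. Jarid2, Aebp2, Phc1 and Rybp had H3K27ac alone at their ends, and 12 (44.4%) had no call, against 73.4% of all genes. A replicated H3K4me3 region of 841 and 1531 bp lay inside the Aebp2 span, within 1 kb of an annotated start. Of 20 m6A genes, 3 had H3K4me3 in both lists, 10 H3K27ac in both and 7 (35.0%) no call. The readers Ythdf1, Ythdf2 and Igf2bp1 had both marks, with H3K4me3 of 632 and 501 bp, 914 and 1016 bp, and 501 and 719 bp. Writer complex members Wtap, Rbm15 and Rbm15b, with the readers Ythdf3 and Igf2bp3, had H3K27ac alone at their ends. A replicated H3K4me3 region of 1044 and 812 bp lay inside the Rbm15 span, within 1 kb of an annotated start. Mettl14 (chr3:123368295-123385990) itself had no H3K4me3 call in control cells and H3K27ac in replicate 1 alone (501 bp). Mettl3 (chr14:52294841-52308741) had no call of either mark in any control list. Peak lists of histone marks do not show whether Mettl14 was deleted.

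Pluripotency genes were called more often than all genes. Of 25 naive and core pluripotency genes, 6 (24.0%) had H3K4me3 in both lists, all 6 with both marks, and 12 (48.0%) had H3K27ac in both. Sox2 had H3K4me3 of 501 bp in both lists and H3K27ac of 3566 and 3518 bp, and Klf4 had 501 bp in both and 1556 and 1081 bp. No H3K4me3 region present in both lists lay within the span of Sox2 or Klf4. Klf2, Tdgf1, Fgf4 and Rif1 were the others. Nanog (chr6:122707489-122714633), with Sall4 and Gdf3, had H3K27ac alone, in peaks of 8081 and 6431 bp at Nanog. Pou5f1, which encodes OCT4, had an H3K4me3 peak of 1266 bp in replicate 1, none in replicate 2, and H3K27ac of 6368 and 5999 bp.

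The promoters of Klf2 (chr8:72318812-72319111 on the plus strand) and Nanog (chr6:122707239-122707538 on the plus strand) are shown as a pair of pluripotency genes with and without an H3K4me3 call, picked after their calls had been seen. All 4 lists overlapped the 300 bases at Klf2, and 1 H3K27ac list did at Nanog. Klf2 has 32 CpG and Nanog 4, in capitals as above.
Klf2: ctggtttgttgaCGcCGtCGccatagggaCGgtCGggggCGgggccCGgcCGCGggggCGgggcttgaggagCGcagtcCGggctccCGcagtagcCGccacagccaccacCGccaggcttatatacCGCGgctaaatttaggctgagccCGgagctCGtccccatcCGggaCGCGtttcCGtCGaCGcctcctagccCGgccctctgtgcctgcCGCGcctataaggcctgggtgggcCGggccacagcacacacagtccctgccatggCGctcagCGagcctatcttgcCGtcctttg
Nanog: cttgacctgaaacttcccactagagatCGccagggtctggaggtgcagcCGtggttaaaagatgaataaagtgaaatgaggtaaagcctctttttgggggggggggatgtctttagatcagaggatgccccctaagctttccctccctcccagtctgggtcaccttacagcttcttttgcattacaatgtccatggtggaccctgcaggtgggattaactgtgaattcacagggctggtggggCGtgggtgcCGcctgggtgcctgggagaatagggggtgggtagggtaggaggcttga
In knockout cells Nanog had H3K4me3 peaks of 3162 and 3981 bp, so the gene was called for the mark in both knockout lists of the series.

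Ribosomal protein genes had the highest share called for each mark taken separately among the lists. Of 28 cytosolic ribosomal protein genes, 10 (35.7%) had H3K4me3 in both lists, 21 (75.0%) H3K27ac in both and 8 (28.6%) both marks, and none was without a call. Rpl13 had 1592 and 989 bp of H3K4me3 and 1699 and 1340 bp of H3K27ac, and Rpl5, Rpl8, Rpl11, Rps6, Rps19 and Rpsa were among the others with both marks. Of 20 housekeeping genes 6 (30.0%) had both marks, among them the elongation factor gene Eef1a1 (2145 and 1228 bp, 2155 and 1635 bp) and the cyclophilin gene Ppia (1078 and 628 bp, 1147 and 2040 bp). Actb, which encodes beta-actin, and Ubb had H3K27ac alone. Of 22 RNA processing genes 5 (22.7%) had H3K4me3 in both lists and 12 (54.5%) H3K27ac in both, with both marks at Srsf3, Srsf5 and Ddx5. Of 26 replication and cell cycle genes, Mcm7, Ccnb1 and E2f3 had both marks and 6 had H3K27ac alone.

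Of 18 genes of LIF, Nodal and BMP signalling none had H3K4me3 in both lists, and Lefty2, a NODAL antagonist, and Smad7, an inhibitor of SMAD signalling, had H3K27ac alone at their ends. Replicated H3K4me3 regions lay inside the spans of Smad7 (897 and 963 bp) and Socs3 (1217 and 1330 bp), beyond the gene-end windows. Of 16 genes of MEK-ERK feedback and the immediate early response, Spry2 had both marks. Other feedback genes of the list differed. Spry4 had H3K27ac in replicate 2 alone (501 bp), and Dusp6, an ERK phosphatase, in replicate 1 alone (501 bp). Spred2 had H3K4me3 of 1407 and 691 bp with H3K27ac in replicate 1 (1389 bp). The cells grew with a MEK inhibitor, which the control shares with all groups.

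Genes of other lineages were rarely called in both lists of a mark. None of 39 Hox genes, 18 ectoderm and neural genes, 18 mesoderm genes or 16 germline and 2-cell-like genes had either mark in both lists, and 36 (92.3%), 16 (88.9%), 17 (94.4%) and 15 (93.8%) of them had no call at all, against 73.4% of all protein-coding genes. Of 14 endoderm genes, Foxa3, a liver and gut transcription factor, had H3K4me3 alone (501 and 724 bp), in peaks it shares with its neighbour Sympk, and 10 (71.4%) had no call, near the share of all genes. Of 17 formative and primed pluripotency genes, none had H3K4me3 in both lists and 13 (76.5%) had no call, also near that share. In both control lists H3K27me3 was called at 19 of the 39 Hox genes, 9 of the 18 ectoderm genes and 7 of the 18 mesoderm genes, against 3.62% of all.

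Markers of other cells that a culture could hold were checked as well. Of 12 fibroblast markers, as feeder cells would show, 11 (91.7%, against 73.4% of all genes) had no call, Col1a1 and Thy1 among them, and Fn1, the fibronectin gene, had H3K27ac alone (501 and 645 bp). Of 10 trophectoderm markers 8 (80.0%) had no call, Cdx2 among them, and Elf5 and Krt7 had H3K27ac in replicate 2 alone (501 bp each). Of 10 primitive endoderm markers 9 (90.0%) had no call, and Gata6 had H3K27ac in replicate 1 alone (501 bp). Of the stem cell markers, Sox2, Klf4 and Tdgf1 had both marks and Nanog and Pou5f1 wide H3K27ac peaks, while Esrrb had H3K27ac in replicate 1 alone (501 bp) and Zfp42 had no call. Most genes of any kind had no call, so markers without one say little about which cells were present.

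**Figure D5:**
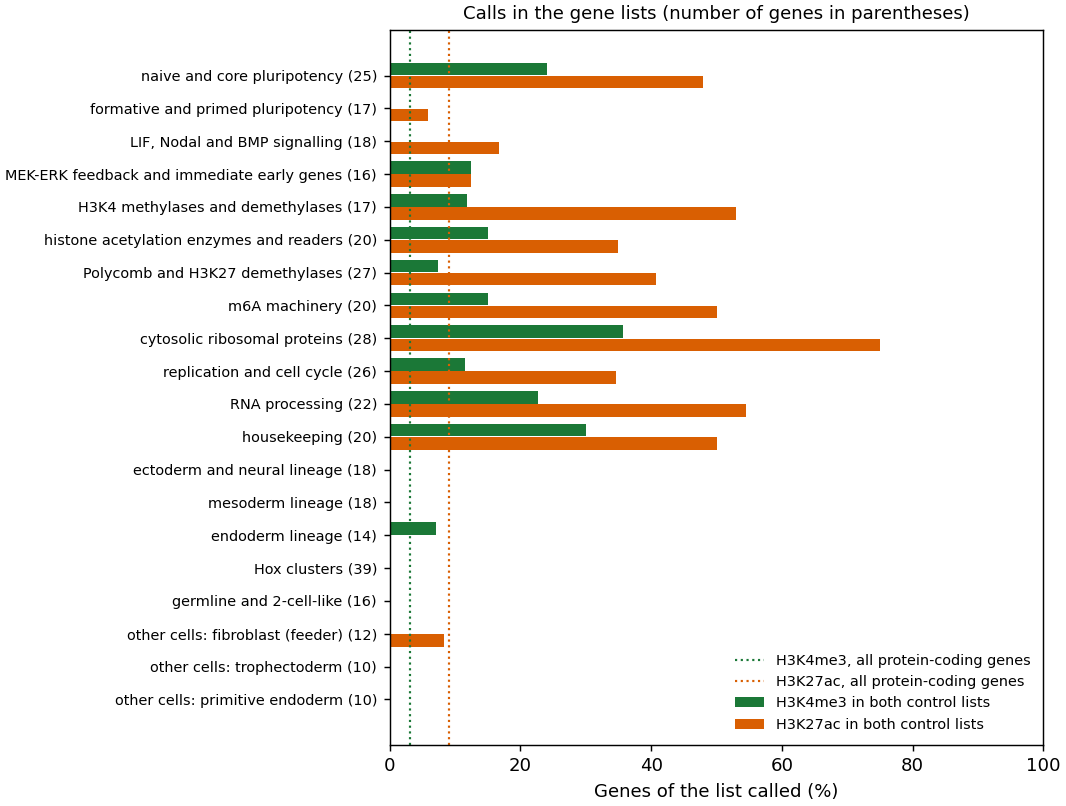
Share of each gene list called in both control lists of a mark (horizontal axis, %), with the number of genes found in parentheses and dotted lines at 3.07% (H3K4me3) and 9.08% (H3K27ac) of all protein-coding genes. Cytosolic ribosomal protein genes reach 35.7 and 75.0% and naive and core pluripotency genes 24.0 and 48.0%, while the Hox, mesoderm and ectoderm lists are at 0.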

How the data were processed

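ChIP-seq peak lists of H3K4me3 and H3K27ac from 2 control libraries each were used, with groups and replicate numbers taken from the sample titles. H3K27me3 control lists and knockout lists served for comparison, and 4 input libraries were not used here. Per the labels' protocols, formaldehyde-fixed chromatin was precipitated with a histone kit plus spike-in chromatin and antibody. The submitters' processing notes name the build mm10 and the tools HOMER, SAMtools, Bowtie2 2.4.1, Trimmomatic 0.38 and CASAVA. Not given in the sources used here are the peak caller's settings, the use of inputs and spike-in, and depth. The authors deposited 1 BED list per library, so peaks were called per sample. Positions (chromosome, start, end) are the only other measurement, per the files, and the deposited score is 1 for every peak and was not used.

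Genes came from a RefSeq table of GRCm38.p6 (49943 genes, 21887 protein-coding) and starts from its promoter table. Peaks on other contigs numbered 3 in these lists. Overlap needed 1 bp. Peak number, covered length, mean width and the shares of peaks at gene ends and in the other replicate were compared by exact two-sided permutation over the 6 assignments of lists. Genes were named by rank: the 10 widest of each class by the smaller width of the calling lists, the 10 widest replicated H3K4me3 regions away from gene ends, Mettl14 and Mettl3, and from every gene list at most 4 genes of a class, without predicted genes. Some genes that this rule names are not reported here. Members and lists were chosen with earlier results of these data known. Alternatives were other windows (500 and 2500 bp), 50% overlap, all gene types, starts alone, equal list length, no peaks of the smallest width, a replicate block, and leaving out each replicate. The counting was tested on simulated data. Python 3.11.15, pandas 2.3.3, numpy 2.4.6, scipy 1.17.1 and matplotlib 3.10.9 were used.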

Additional observations from a re-analysis of the deposited data

How the results depend on the processing

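The differences between the marks in covered length, mean width, share at gene ends and share in the other replicate kept their sign under the alternatives tried, but the order of the single-mark gene classes did not. At equal list length 154 genes had both marks, 355 H3K4me3 alone and 194 H3K27ac alone (70 and 937 as reported, so the order reversed), 24.4% of H3K4me3 genes had H3K27ac, 30.6% of H3K27ac genes had H3K4me3, and 26.3% of replicated H3K4me3 regions met replicated H3K27ac. Equal length sets the difference in peak number to 0 by construction. Without peaks of the smallest width, 214 genes had both marks and 34 H3K4me3 alone, and the 3 shares were 66.0, 15.4 and 64.9%. A 500 bp window gave shares of 55.7 and 17.6%, a 2500 bp window 66.2% and the 50% overlap 55.2% for H3K4me3 genes with H3K27ac. Genes of every type gave 1455 with H3K27ac alone, and starts alone gave 24.1% of H3K27ac genes with H3K4me3.

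When each list was left out in turn, both marks were called at 495 to 745 genes, H3K4me3 alone at 159 to 472 and H3K27ac alone at 1243 to 2193. The shares ranged from 40.6 to 76.3%, from 13.5 to 37.5% and, for regions, from 24.0 to 74.1%. A mark with 1 list left gives no overlap with its other replicate. The cause of these changes was not tested, apart from the looser rule that a single list sets. With the replicate number as a replicate block, the differences were the same by construction (2.46 in peak number, 3.09 in covered length and 0.63 in mean width on the log2 scale), and the exact sign-flip permutation test gave p = 0.5 for each, the smallest it can give. The labels do not say that the numbers pair the libraries, and 2 pairs are too few to check. Of the 37 genes ranked by width, 28 kept their class with the 50% overlap, 33 with either other window, 35 at equal length or without the smallest peaks, and 27 of 33 with starts alone.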
